A study of Hydra vulgaris with 5 samples.

Results

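The genes described here are the stem cell and cell division genes of the freshwater polyp Hydra vulgaris, followed by their descriptions in the deposited count tables. Of 46156 table entries, 59 were chosen by words in the description: helicases of the vasa, DDX4 and DDX3X kind, piwi, nanos, Myc, the DNA replication licensing (MCM) subunits, proliferating cell nuclear antigen (PCNA), ribonucleotide reductase, mitotic cyclins and cyclin-dependent kinase 1. The rule itself used no measured value, but it was chosen with earlier results of these data known. The stem cell group held 25 entries and the division group 22. The other 12 were kinases numbered 10, 11B, 12, 14 and 17, whose names also contain the text "cyclin-dependent kinase 1"; they were kept apart, since their names do not mark dividing cells. The animals belonged to strain 105. They were cut across and left to regenerate, and cells were dissociated with Pronase E and captured in droplets on the Bio-Rad SureCell system, which reads the 3′ ends of transcripts. The groups were regenerating tissue at 0, 4 and 12 h after the cut, with 1 library each, and hypostome, the cone around the mouth, with 2 libraries. No group carried a transgene, mutation or drug in the labels, and the labels do not give the number of animals pooled or which side of the cut was taken.

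Hydra keeps stem cells throughout life. The ectodermal and endodermal epithelial cells divide as lineages of their own, and interstitial stem cells give rise to neurons, nematocytes (stinging cells), gland cells and germ cells. Vasa-type helicases and piwi proteins, known in other animals from the germline, also serve in the stem cells of Hydra, where piwi proteins and their small RNAs silence transposons. Nanos genes are RNA regulators of germline and multipotent cells, and a nanos gene of Hydra is also known from the endoderm of the head. Before DNA synthesis the MCM subunits form the helicase that opens replication origins. PCNA is the sliding clamp of the DNA polymerases, ribonucleotide reductase makes the deoxynucleotides, and mitotic cyclins with cyclin-dependent kinase 1 drive entry into mitosis.

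Values are whole-number counts per gene and barcode, summed per library over barcodes with at least 200 detected genes. These held 1392466, 2495372 and 55274 counts at 0, 4 and 12 h, and 136698 and 230648 counts in hypostome 1 and 2. At 12 h only 64 of 4411 deposited barcodes passed this limit, with 55274 of 935357 counts. Levels are CPM, counts scaled to a common library total with TMM factors, because the entry MSTRG.22171 took 35.6% of the 4 h counts. The factors were 1.12, 0.726 and 0.924 at 0, 4 and 12 h, against 1.18 and 1.12 in the hypostome. They were fitted anew for each choice of barcodes. Over all deposited barcodes they were 1.31, 0.852 and 0.598, against 1.30 and 1.16. A single count is worth 19.6 CPM at 12 h, against 6.18 and 3.86 CPM in the hypostome libraries and under 0.65 CPM at 0 and 4 h, so a level at 12 h rests on few counts. Barcode columns are numbered and carry no barcode sequence, so barcodes shared between libraries were not counted. Of the 59 members, 54 had a count in any barcode, 51 in the barcodes used and 36 at least 20 counts there. At 12 h 30 members were at 0, where 3 counts would be 58.7 CPM. A lower level in a library can come from fewer cells of a type or from less RNA per cell, and these cannot be told apart in summed counts.

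The stem cell group was present in every library at similar summed levels. It stood at 863 CPM at 0 h (95% Poisson interval 817 to 910), 729 CPM (690 to 769) at 4 h and 744 CPM (527 to 1021) at 12 h, against 698 CPM (575 to 839) in hypostome 1 and 614 CPM (522 to 717) in hypostome 2. The intervals cover counting error only. All 3 regenerating values were above both hypostome values, but the intervals of 4 and 12 h overlapped both hypostome intervals and that of 0 h the interval of hypostome 1. The ratio of the means, regenerating over hypostome, was 1.19, and 0.960 without TMM factors.

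**Figure D1:**
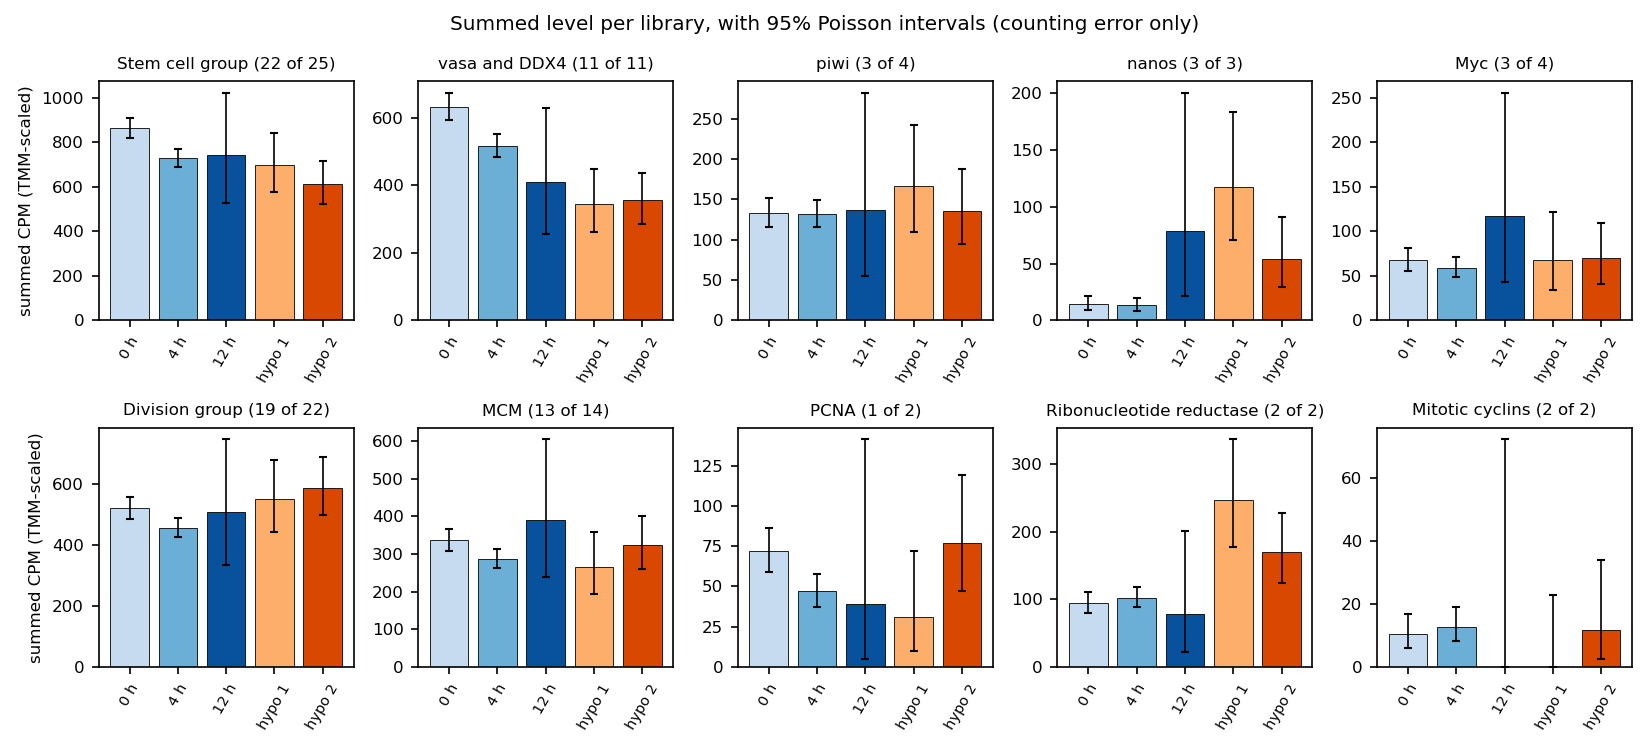
Summed level of each group and role (y axis, TMM-scaled CPM) in each library (x axis; hypo is hypostome), with 95% Poisson intervals as error bars and, in each title, how many of the entries had a count. The vasa and DDX4 panel has its highest bar at 0 h (634 CPM) and its lowest in hypostome 1 (346 CPM), and the ribonucleotide reductase panel has its highest bars in the hypostome libraries (247 and 170 CPM).

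Vasa and DDX4 helicases made up most of this group. The 11 entries summed to 634, 518 and 411 CPM at 0, 4 and 12 h, and to 346 and 355.3 CPM in hypostome 1 and 2. With TMM factors every regenerating library was above both hypostome libraries, and at 12 h the interval (255 to 629) took in both hypostome values. By library totals 0 h stayed above both hypostome libraries, while 4 and 12 h lay below both. The DDX4 entry Sc4wPfr_255.g21683 alone held 34.3% of the counts of the group, with 301, 259 and 117 CPM at 0, 4 and 12 h, against 148 and 197 CPM in the hypostome; its 12 h level was the lowest of all libraries, so the groups overlapped. MSTRG.24910, described as a probable DDX4 helicase, had 165, 112 and 196 CPM at 0, 4 and 12 h, against 105 and 96.5 CPM in the hypostome, with no overlap. By library totals its 4 h level lay below both hypostome levels. The same identifier also carries an entry described as vasa, which had 46.1, 35.3 and 39.2 CPM at 0, 4 and 12 h, against 37.1 and 3.86 CPM in the hypostome; how reads were shared between the entries is not given in the sources used here. A further vasa entry, Sc4wPfr_861.g31120, had 35.2, 24.8 and 19.6 CPM at 0, 4 and 12 h, against 12.4 and 3.86 CPM in the hypostome, which rest on 2 and 1 counts.

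The DDX3X helicases, close relatives of vasa that act in translation, were scarce: the 3 entries together had 23 counts at 0 h and 12 at 4 h, and 0 in the 12 h and hypostome libraries, where 3 counts would be 58.7, 18.5 and 11.6 CPM. The 0 h level of 14.7 CPM lies below those limits in the 12 h library and hypostome 1.

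In the barcodes used, the piwi entries were at similar levels in all libraries. Together the 4 entries had 133, 132 and 137 CPM at 0, 4 and 12 h, against 167 and 135 CPM in the hypostome. Over all deposited barcodes, with TMM factors refitted, the 12 h library was the highest, at 109, 111 and 190 CPM, against 140 and 112 CPM. That order rested on the factors, which were 0.598 at 12 h and 1.30 in hypostome 1. By library totals hypostome 1 was the highest, and 12 h lay below both hypostome libraries. The entry with most counts, MSTRG.20010, had 77.5, 78.9 and 78.3 CPM at 0, 4 and 12 h, against 92.7 and 81.1 CPM in the hypostome. Its 3 regenerating values lay close together and just below the hypostome, a gap smaller than their Poisson intervals. A second piwi entry, MSTRG.21508, had 41.0, 39.2 and 19.6 CPM, against 37.1 and 38.6 CPM.

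Of the nanos entries, MSTRG.5626, described as nanos homolog 1-like, was lower in every regenerating library. It had 8.33 CPM at 0 h, 6.62 CPM at 4 h and 0 at 12 h, against 98.9 and 38.6 CPM in hypostome 1 and 2. The groups did not overlap, with a mean of 4.98 ± 4.40 CPM (SD, n = 3) in regenerating tissue and 68.7 ± 42.6 CPM (SD, n = 2) in hypostome. The counts behind these levels were 13, 12 and 0, against 16 and 10. Nanos 2 (Sc4wPfr_169.g29161, singled out after its values were seen) had 3.85 and 3.31 CPM at 0 and 4 h and 78.3 CPM at 12 h, which is 4 counts, against 18.5 and 15.4 CPM in the hypostome, so that its 12 h level was above both. Nanos 1 (Sc4wPfr_366.g23802) had 3, 6 and 0 counts at 0, 4 and 12 h, against 0 and 0.

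The Myc transcription factors, which drive growth and proliferation, had 67.3, 59.0 and 117 CPM at 0, 4 and 12 h over 4 entries, against 68.0 and 69.5 CPM in the hypostome. The Myc-A-like entry MSTRG.24749 had 37.8, 37.5 and 39.2 CPM at 0, 4 and 12 h, against 12.4 and 27.0 CPM in the hypostome, without overlap. By library totals its 4 h level fell between the hypostome levels. The myc protooncogene entry Sc4wPfr_73.g11571 had 25.0, 18.2 and 58.7 CPM, against 24.7 and 42.5 CPM, with overlap. The 12 h values of these entries are 2 and 3 counts.

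**Figure D2:**
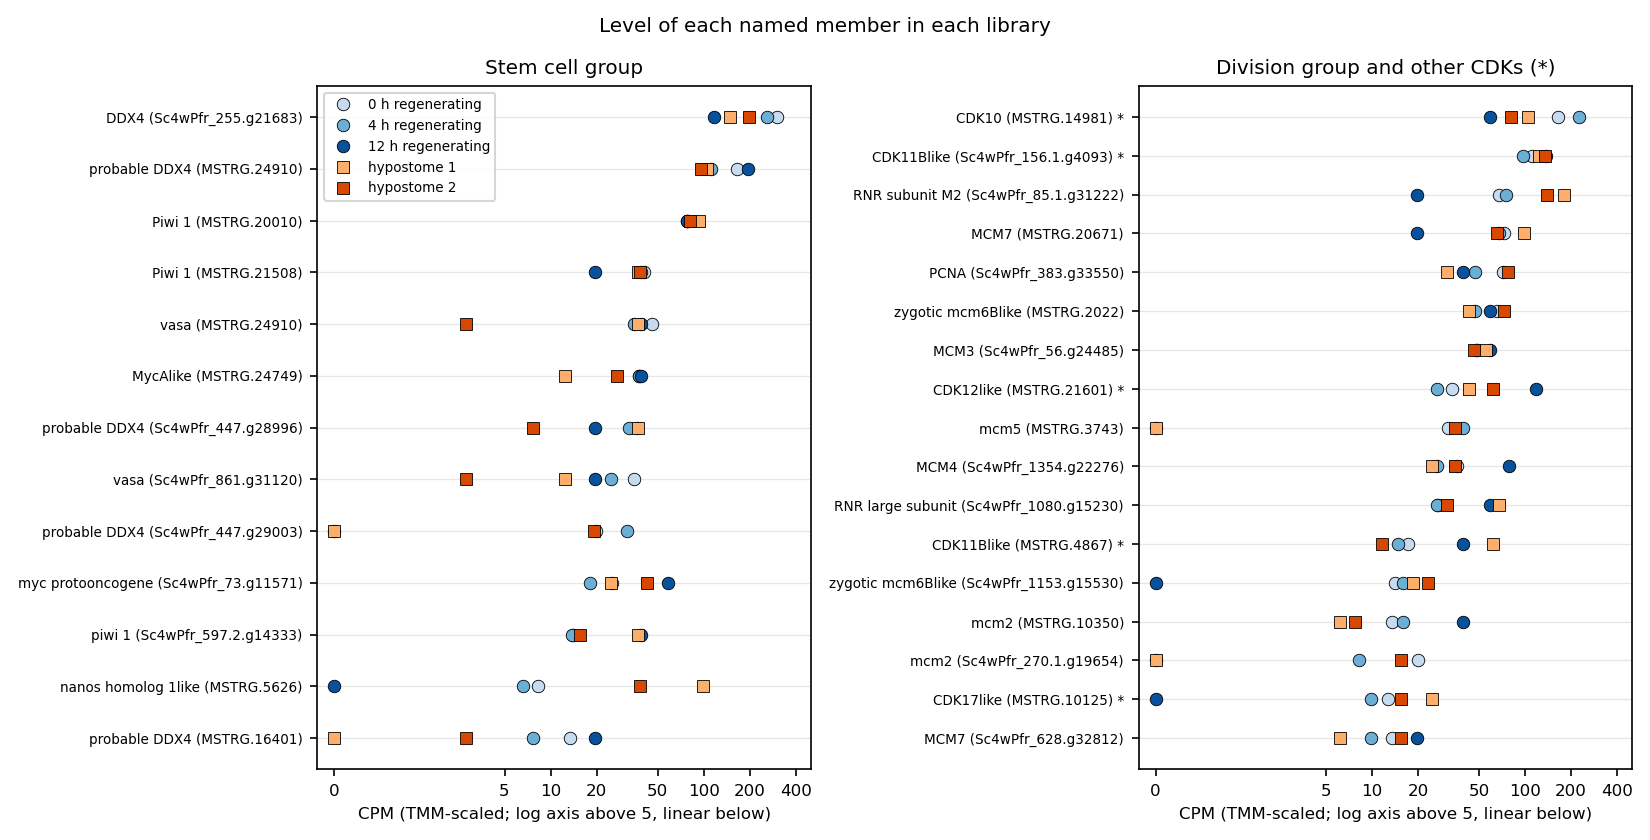
Level of each of the 30 members with most counts (x axis, TMM-scaled CPM, log above 5 and linear below) in the regenerating libraries (blue circles) and the hypostome libraries (orange squares), with other cyclin-dependent kinases marked by an asterisk. Most rows mix circles and squares, and the rows that keep them apart go in both directions. Circles lie lower for nanos homolog 1-like (0 to 8.33 CPM against 38.6 and 98.9 CPM) and ribonucleotide reductase M2 (19.6 to 75.6 CPM against 139 and 179 CPM), among others. They lie higher for the probable DDX4 entry of MSTRG.24910 (112 to 196 CPM against 96.5 and 105 CPM), among others.

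The division group was also at similar levels in both tissues. It summed to 521 CPM (486 to 558) at 0 h, 455 CPM (425 to 487) at 4 h and 509 CPM (333 to 746) at 12 h, against 550 CPM (442 to 677) in hypostome 1 and 587 CPM (497 to 688) in hypostome 2. All 3 regenerating values were below both hypostome values, and the intervals overlapped except that of 4 h with hypostome 2. The ratio of the means, 0.871 regenerating over hypostome, depended on the barcodes used and the TMM factors fitted to them. It was 0.982 in barcodes with at least 500 genes and 1.495 over all deposited barcodes. The parts of barcode choice and scaling in these values were not tested.

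The 14 MCM entries summed to 336, 287 and 392 CPM at 0, 4 and 12 h, against 266 and 324 CPM in the hypostome, and the groups overlapped. MCM7 (MSTRG.20671) had 73.1, 67.9 and 19.6 CPM, against 98.9 and 65.7 CPM. MCM3 (Sc4wPfr_56.g24485) had 48.1, 48.5 and 58.7 CPM, against 55.6 and 46.3 CPM. The mcm6B-like entry MSTRG.2022, whose description calls it zygotic, had 65.4, 47.4 and 58.7 CPM, against 43.2 and 73.4 CPM. None of these subunits separated the tissues. MCM4 (Sc4wPfr_1354.g22276) had 35.9, 26.5 and 78.3 CPM, against 24.7 and 34.8 CPM, and the mcm5 entry MSTRG.3743 had 31.4, 39.2 and 0 CPM, against 0 and 34.8 CPM. The mcm2 entry MSTRG.10350 had 13.5, 16.0 and 39.2 CPM, against 6.18 and 7.72 CPM, which is 1 and 2 counts in the hypostome. Subunits of the same hexamer thus differed in which library was highest, mostly through values of a few counts.

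PCNA (Sc4wPfr_383.g33550) had 71.8, 46.9 and 39.2 CPM at 0, 4 and 12 h, against 30.9 and 77.2 CPM in the hypostome, so the hypostome libraries enclosed all regenerating values. The second PCNA entry had no count in any barcode.

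Ribonucleotide reductase as a role had a ratio of 0.439, regenerating over hypostome, in the barcodes used and of 0.929 over all deposited barcodes. Its small subunit M2 (Sc4wPfr_85.1.g31222) had 67.3, 75.6 and 19.6 CPM at 0, 4 and 12 h, against 179 and 139 CPM in hypostome 1 and 2. The regenerating libraries averaged 54.1 ± 30.2 CPM (SD, n = 3), below both hypostome libraries, which averaged 159 ± 28.4 CPM (SD, n = 2). The large subunit (Sc4wPfr_1080.g15230) had 26.9, 26.5 and 58.7 CPM, against 68.0 and 30.9 CPM; its 12 h value is 3 counts and overlaps the hypostome.

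Markers of mitosis itself were rare. Both mitotic cyclins together had 16 counts at 0 h, 23 at 4 h and 0 at 12 h, against 0 and 3 counts in hypostome 1 and 2. Cyclin-dependent kinase 1 (Sc4wPfr_85.g877) had 13, 11 and 0 counts, against 1 and 1. These counts could show no difference at the depth of the smaller libraries. The kinases of other numbers, several of which act in transcription, had more counts: kinase 10 (MSTRG.14981) had 165, 227 and 58.7 CPM, against 105 and 81.1 CPM, and kinase 11B-like (Sc4wPfr_156.1.g4093) had 111, 97.6 and 137 CPM, against 124 and 135 CPM.

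Regenerating tissue was compared with hypostome across all entries by edgeR's quasi-likelihood test, with the 3 time points standing in for replicates. Of the 59 members, 16 passed the filter on low counts, 7 of the stem cell group, 6 of the division group and 3 other kinases; the members that failed it are described only by the levels above. None of the 16 passed an adjusted p of 0.05, and neither did any of the 3022 entries tested (percent called 0%); 2 of the 16 and 333 of the 3022 (11%) had an unadjusted p under 0.05. DESeq2 called 1 of the 16 members (103 of 3022 entries, 3.41%) and limma called 0. The median log2 fold change, regenerating over hypostome, was -0.11 over the 16 members and -0.00 over all entries. In 3 of the 16 all regenerating libraries lay below the hypostome libraries (19.1% of all entries) and in 1 all lay above (10.2%), so the members did so about as often as other entries.

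Nanos homolog 1-like had the lowest ratio of the members tested, at -3.17 ± 0.64 on the log2 scale (SE; adjusted p = 0.254 by edgeR). It was tested in 11 alternative settings and was lower in regenerating tissue in each, by -4.94 to -2.29 on the log2 scale, with an adjusted p between 0.0104 and 1.00. It was called by DESeq2 (adjusted p = 0.0104; 2.75% of all entries were called lower) and by edgeR without the 12 h library (log2 fold change -2.94 ± 0.56, adjusted p = 0.0484; 1.36% of all entries were called lower). Nematocyte and neuron markers were also lower in every regenerating library. The 30 nematocyte lineage markers summed to between 509 and 4497 CPM in the regenerating libraries and between 12636 and 20197 CPM in the hypostome libraries, with 28, 29 and 6 entries detected at 0, 4 and 12 h, against 23 and 23. The 81 neuron markers summed to between 509 and 1196 CPM in the regenerating libraries, against 2881 and 9311 CPM in the hypostome libraries, with 57, 63 and 11 detected, against 38 and 47, and 14 of the 81 at 0 in all regenerating libraries, 8 of them at 0 in the hypostome too. Endodermal epithelial markers overlapped, at 15670, 16034 and 1018 CPM at 0, 4 and 12 h, against 10892 and 11960 CPM in the hypostome. The part of neuron, nematocyte and epithelial content in the nanos difference was not tested. The deep barcodes described below held 33 nanos homolog 1-like counts. Its level there was highest in the endodermal epithelial-like (84.9 CPM) and neuron-like (75.2 CPM) clusters and 0 in the nematocyte lineage-like cluster. These levels rest on 9 and 6 counts in 5 and 4 barcodes, pooled over libraries. Hypostome 1 and 2 gave 6 and 14 of the 37 endodermal epithelial-like and 10 and 7 of the 30 neuron-like barcodes. Of all 310 barcodes they gave 42 and 50, so cluster and tissue are not separated in these levels.

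Ribonucleotide reductase M2 had a log2 fold change of -1.37 ± 0.56 (SE, edgeR, adjusted p = 0.450), lower in all 3 regenerating libraries. Its log2 fold change was -0.98 without the 12 h library and -0.26 over all deposited barcodes, so the gap was smaller in both, and its adjusted p over 14 alternatives lay between 0.0876 and 1.00 (edgeR, DESeq2 and limma). The 2 other entries without overlap were smaller: piwi MSTRG.20010 at -0.15 ± 0.41 and the probable DDX4 entry of MSTRG.24910 at 0.61 ± 0.49 (SE, edgeR, adjusted p = 0.987 and adjusted p = 0.809). The log2 fold changes of the remaining 12 lay between -0.70 and 1.19.

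Without the 12 h library more members could be tested, 29, and 1 was called, against 175 of 7732 entries (2.26%). An unadjusted p under 0.05 was found for 6 of these 29 and 21.4% of all entries. On that comparison the DDX4 entry Sc4wPfr_255.g21683 had a log2 fold change of 0.84 ± 0.30 (SE, edgeR, adjusted p = 0.170), the vasa entry Sc4wPfr_861.g31120 of 2.19 ± 0.71 (SE, edgeR, adjusted p = 0.139) and nanos 2 of -2.04 ± 0.51 (SE, edgeR, adjusted p = 0.0899). None of these 3 passed the threshold.

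Other genes of the same pathways were chosen by description, also with earlier results of these data known. They gave no calls in edgeR over the 5 libraries with the time points as 1 group. Of 186 further division entries 22 could be tested and 0 were called, with 2 at an unadjusted p under 0.05; DESeq2 called 1, limma 0 and edgeR with 1 term per time point 2. Their median log2 fold change was 0.04, and their summed level was 4827, 5162 and 5854 CPM at 0, 4 and 12 h, against 5672 and 4646 CPM in the hypostome. The entries with most counts were 3 described as DNA primase, the enzyme that starts new DNA strands. MSTRG.14423 had 1321, 1528 and 157 CPM, against 964 and 1039 CPM. MSTRG.14420 had 916, 981 and 255 CPM, against 809 and 811 CPM. Sc4wPfr_383.g33531 had 344, 351 and 97.9 CPM, against 173 and 197 CPM. All 3 were lowest at 12 h, where the summed level of the list was highest, so that sum joins entries that moved differently. The origin recognition complex subunit 2 entry MSTRG.24078 had 123, 168 and 0 CPM, against 791 and 378 CPM (log2 fold change -2.45 ± 1.03 SE, edgeR adjusted p = 0.473). A Ki-67-like entry (MSTRG.1960), named for a marker of cycling cells, had 92.3, 153 and 313 CPM, against 154 and 143 CPM. A centromere F-like entry (MSTRG.3967), a mitotic kinetochore protein in vertebrates, had 26.9, 58.5 and 0 CPM, against 272 and 189 CPM, and was lower in regenerating tissue by DESeq2 (adjusted p = 0.0285) but not by edgeR (adjusted p = 0.326). Another centromere F-like entry (Sc4wPfr_139.g210) had 37.8, 57.9 and 19.6 CPM, against 327 and 54.1 CPM, with overlap. It was not called by DESeq2 (adjusted p = 0.200) or edgeR (adjusted p = 0.440).

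Of 73 further stem cell and germline entries 6 could be tested and 0 were called by edgeR, with 1 at an unadjusted p under 0.05. That entry was MSTRG.7973, described as max dimerization 1-like, a name given to partners of the Myc cofactor Max. It had 66.6, 82.2 and 97.9 CPM at 0, 4 and 12 h, against 284 and 263 CPM in the hypostome, with no overlap (log2 fold change -1.77 ± 0.45 SE, edgeR adjusted p = 0.271). It was called by DESeq2 (adjusted p = 0.0213) and by edgeR without the 12 h library (adjusted p = 0.0444). The entries with most counts besides it were those for pumilio homolog 2 (MSTRG.1608), with 106, 104 and 97.9 CPM, against 30.9 and 139 CPM, pumilio homolog 3-like (MSTRG.22919), argonaute 2 (MSTRG.15974) and a tudor domain entry (Sc4wPfr_587.g26429), whose adjusted p lay between 0.787 and 0.992 in edgeR.

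The time points have 1 library each, so ratios between them carry counting error only and no test. At 4 h over 0 h the ratio was 0.845 (exact conditional binomial interval 0.782 to 0.912) for the stem cell group and 0.874 (0.792 to 0.964) for the division group. The vasa and DDX4 entries had a ratio of 0.817 (0.747 to 0.895) and the piwi entries of 0.994 (0.822 to 1.20). Of 34 members with at least 20 counts over both libraries, 0 were at least 2-fold higher (8.98% of all 10216 such entries) and 2 were at least 2-fold lower (4.62%). With at least 50 counts neither kind was found among 24 members (6.23% of all such entries higher and 2.19% lower). The lower entries were DDX3X (Sc4wPfr_2009.g19352), with a ratio of 0.453 (0.188 to 1.02, from 10 and 19 counts), and an mcm2 entry (Sc4wPfr_270.1.g19654), with 0.417 (0.209 to 0.795, from 15 and 31 counts). PCNA had a ratio of 0.653 (0.487 to 0.874) and ribonucleotide reductase of 1.08 (0.868 to 1.35). In barcodes with at least 500 genes the division group had a ratio of 1.03 (0.895 to 1.19) and ribonucleotide reductase of 1.74 (1.27 to 2.40). The 4 h direction of the division genes thus depended on the barcodes used and the TMM factors fitted to them. The median log2 ratio was -0.22 over the 34 members and 0.02 over all entries. Scaled by library totals the medians were -0.84 and -0.61, so that scaling lowered all entries alike, and 13 members then passed the 2-fold limit downward (22.9% of all entries).

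At 12 h over 0 h the stem cell group had a ratio of 0.863 (0.608 to 1.19) and the division group of 0.977 (0.634 to 1.44), and both intervals include 1. Over all deposited barcodes the division group had a ratio of 1.27 (1.11 to 1.45, from 302 and 874 counts), the MCM entries of 1.44 (1.22 to 1.68) and the piwi entries of 1.74 (1.36 to 2.20), above 1, and the stem cell group of 0.925 (0.822 to 1.04), so the 12 h ratio of the division genes depended on the barcodes used. With the TMM factors other roles went down over all deposited barcodes: the vasa and DDX4 entries had a ratio of 0.667 (0.569 to 0.778) and PCNA of 0.307 (0.144 to 0.585). In barcodes with at least 200 genes the vasa and DDX4 ratio was 0.649 (0.400 to 0.997). Single members at 12 h rest on few counts. With counts under 3 raised to 3, 14 of 30 members came out at least 2-fold higher, but so did 55.9% of all 6463 entries, because 3 counts at 12 h already equal 58.7 CPM; of these 30 members, 18 had fewer than 3 counts at 12 h. Requiring also at least 3 counts at 12 h, 5 of the 30 members were at least 2-fold higher (15.9% of the 6463 entries); with counts under 3 raised to 3, 2 of the 30 were lower (6.76%). With at least 50 counts 2 of 17 members were higher (13.1% of entries) and 2 lower (14.2%). Cyclin-dependent kinase 12-like (MSTRG.21601) had a ratio of 3.53 (1.24 to 8.20, from 6 and 52 counts) and the mcm5 entry Sc4wPfr_137.g27913 of 9.55 (2.74 to 27.3, from 5 and 16 counts). The myc protooncogene entry had a ratio of 2.35 (0.465 to 7.39), MCM4 of 2.18 (0.575 to 5.91) and the reductase large subunit of 2.18 (0.433 to 6.83), intervals that include 1. The DDX4 entry Sc4wPfr_255.g21683 was lower, at 0.390 (0.142 to 0.855, from 6 and 470 counts), as was kinase 10 at 0.357 (0.0731 to 1.05).

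To see which cells carried these counts, barcodes with at least 500 genes were clustered with the members and the further division entries left out of the genes used. There were 310 such barcodes, 94, 111 and 13 at 0, 4 and 12 h and 42 and 50 in the hypostome libraries, and they fell into 7 clusters. Markers named a nematocyte lineage-like cluster (44 barcodes), an endodermal epithelial-like cluster (37), a gland cell-like cluster (44) and a neuron-like cluster (30), while 3 clusters remained unnamed. Names rest on the marker lists used here, and doublets were not called.

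Division counts were concentrated in an unnamed cluster of 70 barcodes. Its division group stood at 1792 CPM (95% Poisson interval 1646 to 1947; CPM of a cluster or of a set of barcodes use its own total and no TMM factor), against 911 (857 to 969) over all 310 barcodes and 123 (65.3 to 210) in the endodermal epithelial-like cluster. The stem cell group was also highest there, at 1660 (1519 to 1809) CPM, against 1089 over all barcodes. Leading entries of this cluster were Antigen KI, nucleolar 58 (a ribosome assembly protein), uracil-DNA glycosylase (a DNA repair enzyme) and an unannotated entry under the identifier of the Ki-67-like gene. Genes of this kind took part in the clustering, so the height of the division group in this cluster is a description and no test. The level was similar wherever the cluster held barcodes: 1768 (1532 to 2029) CPM at 0 h and 1696 (1492 to 1919) at 4 h, against 2104 (1585 to 2739) in hypostome 1 and 2193 (1617 to 2908) in hypostome 2, with overlapping intervals. The cluster took 30 of the 94 barcodes of the 0 h library, 27 of the 111 at 4 h and none of the 13 at 12 h, against 8 of 42 and 5 of 50 in the hypostome libraries. All 13 barcodes at 12 h lay in another unnamed cluster of 60. That cluster also held 13 barcodes at 0 h, 21 at 4 h, and 5 and 8 in hypostome 1 and 2. Its division level was 688 (393 to 1118) CPM at 12 h and between 647 and 877 CPM in the other libraries. Whether the 12 h barcodes lay there by library or by cell type was not tested.

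**Figure D3:**
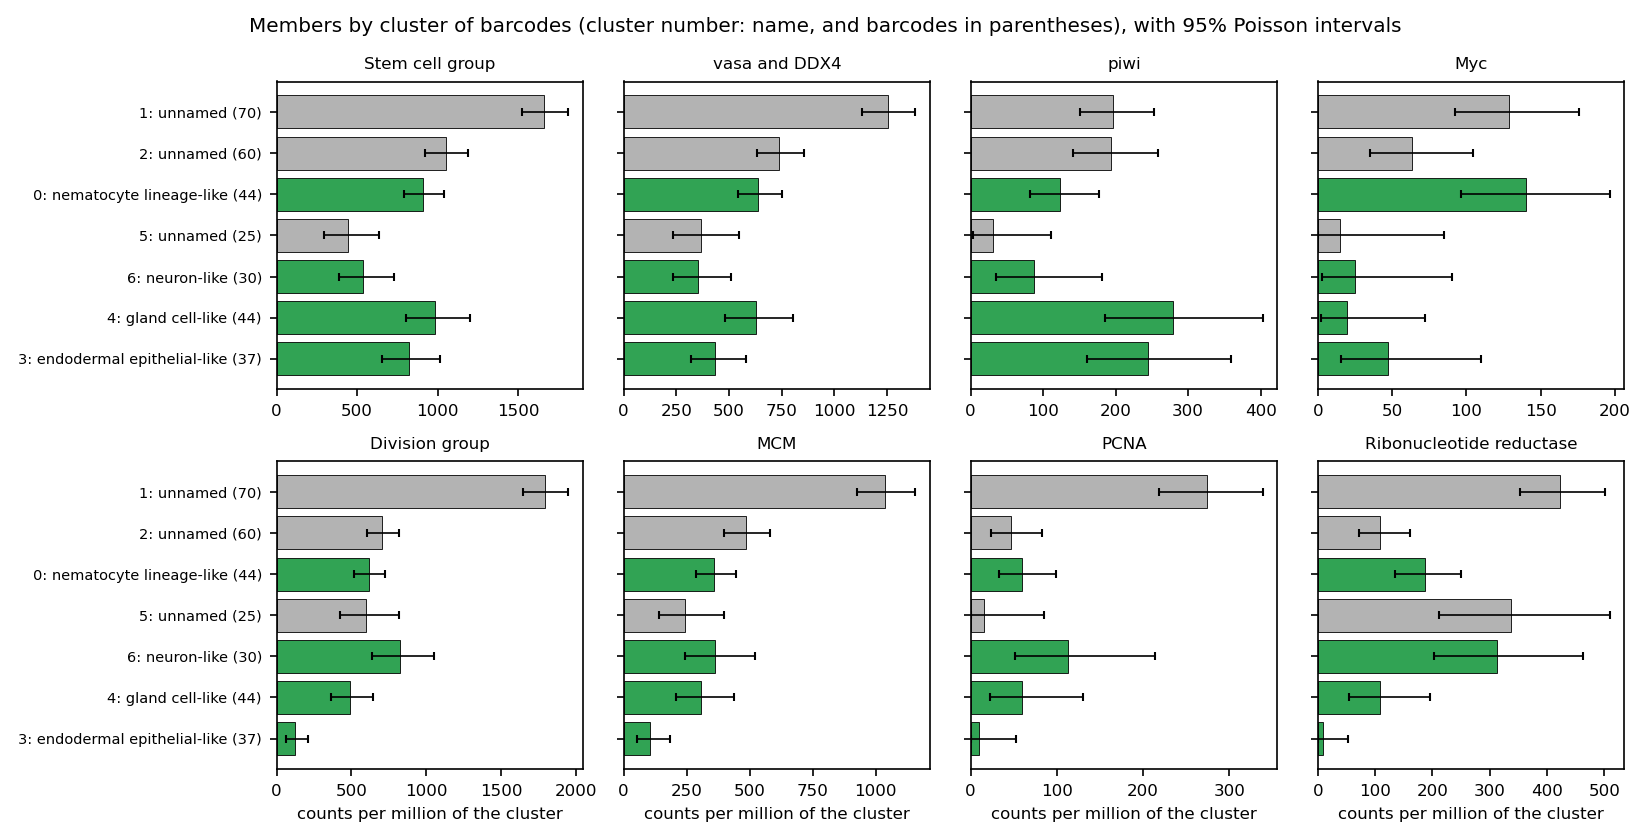
CPM of each cluster's own total (x axis) for 8 groups and roles, with clusters down the page by number, name and barcodes in parentheses; named clusters are green, unnamed ones grey, and bars carry 95% Poisson intervals. Cluster 1 has the longest bars for the division group (1792), MCM (1038) and PCNA (274), while piwi has its longest bars in the gland cell-like (279) and endodermal epithelial-like (245) clusters.

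The members differed in where they lay. PCNA had 85 of its 127 counts in the division-rich cluster, MCM7 (MSTRG.20671) 78 of 137 and the reductase large subunit 35 of 62. Cyclin-dependent kinase 1 had 8 of 12 there. Replication genes were thus most concentrated in the same 70 barcodes, which held 310309 of the 1135686 counts. Ribonucleotide reductase M2 was broader: it stood at 309 CPM in this cluster, 306 in an unnamed cluster of 25 barcodes led by centrosomal and tubulin entries, 263 in the neuron-like cluster and had no count among the 106066 of the endodermal epithelial-like cluster. Its level in the neuron-like cluster stands beside the higher neuron markers of the hypostome libraries; the part of that content in the tissue difference of M2 was not tested.

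The stem cell genes were less alike. The myc protooncogene had 29 of 43 counts in the nematocyte lineage-like cluster and 12 in the division-rich cluster, whereas the Myc-A-like entry had 4 and 19 of 44. The probable DDX4 entry of MSTRG.24910 had 140 of 249 counts in the division-rich cluster, and the DDX4 entry Sc4wPfr_255.g21683 had 179 of 418 there and 91 in the nematocyte lineage-like cluster. The vasa entry of MSTRG.24910 was the most uneven of the 25 members tabulated for spread over barcodes: 94 counts lay in 17 barcodes, with 19 in a single barcode and 50% in 3 barcodes. Piwi counts were spread over most clusters, at 197 (150 to 253) CPM in the division-rich cluster, 245 (160 to 359) in the endodermal epithelial-like cluster and 279 (185 to 403) in the gland cell-like cluster, but 87.7 (35.3 to 181) in the neuron-like cluster and 30.6 (3.70 to 110), from 2 counts, in the unnamed cluster of 25 barcodes. Nanos homolog 1-like had 11 of 33 counts in the division-rich cluster, 9 in the endodermal epithelial-like and 6 in the neuron-like cluster, which as levels are 35.4, 84.9 and 75.2 CPM.

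Within the same 310 barcodes, 232 held a count of the stem cell group, 167 a count of the division group and 145 both. A division count was found in 62.5% (exact binomial interval 55.9 to 68.7) of the barcodes with a stem cell count and in 28.2% (18.6 to 39.5) of those without. The division group stood at 1002 (941 to 1066) CPM in barcodes with a stem cell count and 249 (172 to 348) in those without. The first barcodes were deeper, with a median of 2960.5 counts against 1546.5, which by itself raises a share. With every barcode thinned to 500 counts the shares were 34.1% and 21.0%, and over 6 draws they ranged from 30.6% to 39.3% and from 17.9% to 24.5%. Thinned to 1000 counts, which left out 21 barcodes, they ranged from 44.0% to 51.7% and from 27.1% to 30.9%. The order was the same in every library unthinned, with 69.2% against 25.0% at 0 h, 59.3% against 28.0% at 4 h, 66.7% against 57.1% at 12 h, 57.1% against 28.6% in hypostome 1 and 58.8% against 18.8% in hypostome 2; at 12 h these are 4 of 6 and 4 of 7 barcodes. Thinned to 500 counts, the order held in each library but the 12 h one, with 1 of 4 against 3 of 9 barcodes. Within clusters, thinned to 500 counts, the shares were 55.9% against 38.9% in the division-rich cluster and 27.3% against 24.2% in the nematocyte lineage-like one, and the order was the other way in the neuron-like cluster, with 1 of 6 against 6 of 24, and in the unnamed cluster of 25 barcodes, with 0 of 2 against 4 of 23. A division count was held by 81.4% of the division-rich cluster (median 2829.5 counts) and by 53.9% of all 310 barcodes. In the other clusters the share ran from 21.6% in the endodermal epithelial-like one (median 1774 counts) to 58.3% in the unnamed cluster of 60. Thinned to 500 counts, 33 of 70 barcodes of the division-rich cluster and 2 of 37 endodermal epithelial-like barcodes held one, against 77 of all 310.

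Barcodes with both kinds of count had lower levels of nematocyte, neuron, gland cell and epithelial markers than barcodes with a stem cell count alone. Nematocyte lineage markers stood at 8298 CPM in barcodes with both, against 26645 in those with a stem cell count alone, 7296 with a division count alone and 12494 with neither. Neuron markers stood at 1586, 5417, 1813 and 3603 CPM in the same order, and gland cell markers at 1676, 9207, 2056 and 4227. Endodermal epithelial markers stood at 7462, 14229.5, 6412 and 13009 CPM, and ectodermal epithelial markers at 1882, 4271, 995 and 3384. Each of these marker sums was lower in barcodes with a division count, with or without a stem cell count. Sperm and testis markers went the other way, at 267, 175, 509 and 285 CPM in that order.

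The division roles occurred together. Of barcodes with an MCM count 34.7% (27.0 to 43.1) also held PCNA, against 3.01% (0.985 to 6.89) of those without, and 72 of 144 held ribonucleotide reductase, against 18 of 166. PCNA stood at 166 (138 to 199) CPM with an MCM count and 12.4 (4.03 to 29.0) without, a gap in level as well as in share. Of the 19 barcodes with a mitotic cyclin count 18 held an MCM count, and all 10 with a cyclin-dependent kinase 1 count did, in both cases from few counts. A vasa or DDX4 count went with an MCM count in 61.0% (53.6 to 68.0), against 24.4% (17.1 to 33.0) without it, and MCM stood at 633 (582 to 688) and 190 (139 to 252) CPM. For piwi the shares with MCM were 61.5% (51.7 to 70.6) and 38.3% (31.6 to 45.4), and for nanos 77.4% (58.9 to 90.4) and 43.0% (37.1 to 49.1). Barcodes with a Myc count were the deepest of the stem cell roles, with a median of 5191 counts against 2141, and 72.1% (59.2 to 82.8) held MCM, against 40.2% (34.0 to 46.5). Depth differed in the same direction in each of these pairs, and the shares were not compared by a test, since barcodes of a library are not replicates.

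**Figure D4:**
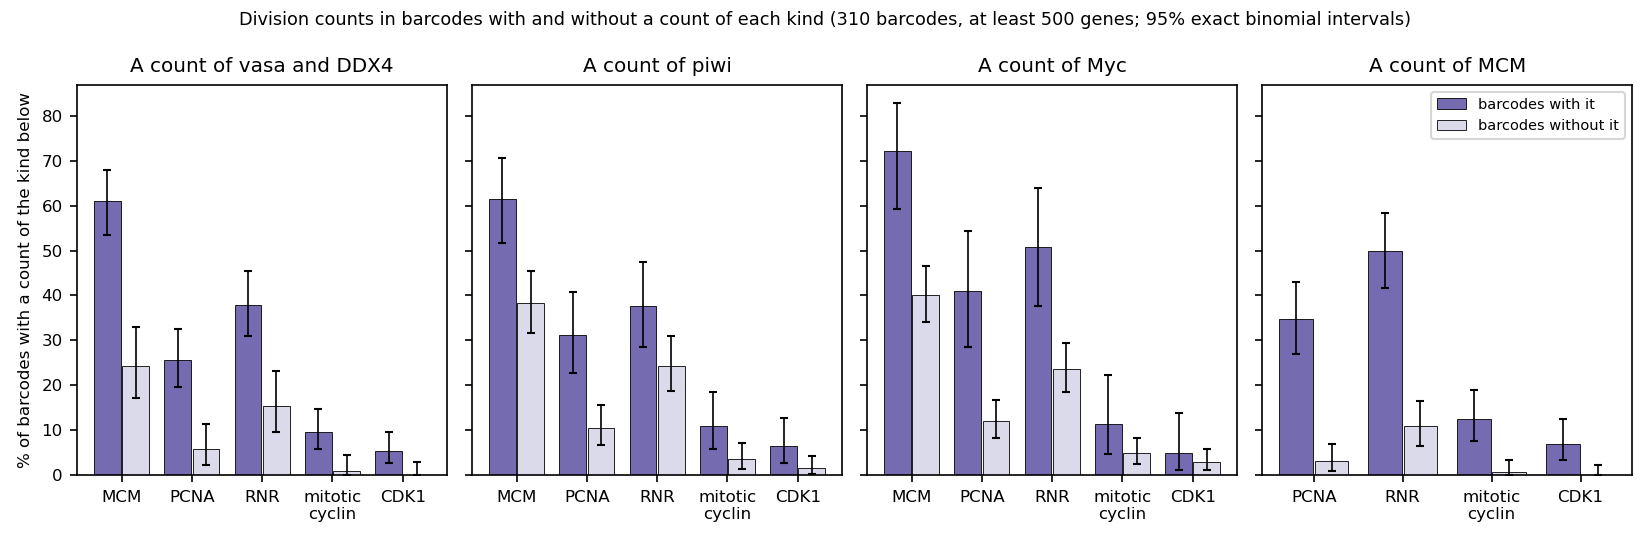
Percent of the 310 barcodes (y axis, with 95% exact binomial intervals) that held a count of each division role (x axis; RNR is ribonucleotide reductase), for barcodes with a count of the role named above each panel (dark) and without it (light). In the MCM panel PCNA was held by 34.7% of barcodes with and 3.01% without an MCM count, and in the piwi panel MCM was held by 61.5% and 38.3%.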

How the data were processed

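Whole-number counts for each gene in each barcode were deposited, with no normalization by the authors; per the submitters' processing notes kallisto 0.46.1 was used. Its role, the genome build and annotation, the choice of barcodes and whether counts are molecules or reads are not given in the sources used here, so no coordinates are given and intervals cover counting error only. Members and lists were chosen with earlier results of these data known. By their names, the tables exclude mitochondrial genes. A leftover header line among the gene names was left out. Counts were summed over barcodes with at least 200 genes and tested with edgeR 4.0.16 (R 4.3.3; TMM, filterByExpr, Benjamini-Hochberg at 0.05 over all entries), checked on simulated data of 2094 genes, where 55 of 81 changes of 4-fold, 5 of 71 of 2-fold and 2 of 1942 unchanged genes were called. The simulation had a dispersion of 0.1 and no difference between time points. It therefore does not give the share of changes that the test would find in these libraries. The test treats time points as if they were replicates, and nothing says that libraries come from separate animals, so p-values measure the spread between these libraries. The standard error is the fold change over the square root of F. DESeq2 1.42.0 and limma 3.58.1 (log2 CPM, prior count 2), library totals, no filter, 1 term per time point, all barcodes, at least 500 genes, MSTRG.22171 left out, each library left out and a replicate block were alternatives. Clustering used scanpy 1.11.5 (counts per 10000, 2000 variable genes, 30 components, 15 neighbours, Leiden resolution 0.8). A cluster took a name with at least 3 markers 4-fold higher (after adding 20 CPM) and 2 among its 10 leading genes. Members with at least 20 counts, at most 30, are named, and in the further lists the 5 entries with most counts and every entry called; lists of 5 or fewer are also named, and nanos 2 and cyclin-dependent kinase 1 were chosen after their values were seen. Intervals are exact (binomial or Poisson, 95%), and the floor is 3 counts.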

Additional observations from a re-analysis of the deposited data

How the results depend on the processing

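No member was called in edgeR with library totals, without a filter, with 1 term per time point, over all barcodes, with at least 500 genes or without MSTRG.22171; DESeq2 called 1, nanos homolog 1-like, and leaving out each library gave 0 to 1 (1 without the 12 h library). That entry's log2 fold change was -3.28 by DESeq2 and -2.94 without the 12 h library. In the further division list DESeq2 called 1 entry and the model with 1 term per time point called 2. The fold change of piwi MSTRG.20010 turned to 0.13 without a filter and lay between -0.22 and 0.0154 when each library was left out (0.0154 without the 12 h library), and 9 of the 12 other tested members took the other sign in at least 1 alternative. Library totals moved the median log2 fold change of all entries to -0.31 and of the members to -0.41. At 4 h over 0 h the 2 lower members became 13 with library totals (22.9% of all entries), 0 with at least 50 counts and 0 at 4-fold. At 12 h over 0 h the 14 higher members became 2 of 17 with at least 50 counts (13.1% of all entries), 7 of 30 at 4-fold (19.0%), 3 of 16 with at least 500 genes (30.4%) and, in an alternative chosen after seeing the data, 5 where the 12 h library held at least 3 counts (15.9%); the 2 lower ones became 0 at 4-fold, 8 of 34 over all barcodes (22.5%) and 0 with at least 500 genes. The ratio of mean levels, regenerating over hypostome, moved from 1.19 to 0.960 for the stem cell group with library totals, and from 0.871 for the division group to 0.705 with library totals, 1.495 over all barcodes, 0.982 with at least 500 genes and 1.08 without ribonucleotide reductase M2. The share of barcodes with a division count among those with a stem cell count, 62.5%, was 22.6% with at least 200 genes, 34.1% thinned to 500 counts and 55.0% requiring at least 2 counts of each group, and, chosen after seeing the data, 53.5% without the deepest 1 in 4 barcodes of each library and 44.0% in the first draw thinned to 1000 counts; among those without a stem cell count, 28.2% became 13.6% with at least 200 genes and 15.6% requiring at least 2 counts. The division level of the highest cluster over all barcodes, 1.97, was 1.62 at resolution 0.5, where it merged with the gland cell-like cluster, and 2.39 with at least 200 genes. The causes of these moves were not tested. The labels number the hypostome libraries only, but the column names carry 2, 1 and 2 at 0, 4 and 12 h, against 1 and 2 in the hypostome; with these numbers as a replicate block, added after seeing the data, edgeR called 0 members and 0 further division entries, and the difference between the numbers in regenerating tissue was not related to that in hypostome (Pearson r = -0.019 across 3022 entries). Depth limits most members at 12 h, where 30 of 59 were at 0.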
